A study of Gallus gallus with 18 samples.

Results

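The hedgehog genes described here are SHH, PTCH1, SMO, GLI2 and GLI3, read by all probesets that carry 1 of these symbols in the annotation of the array. There were 7 such probesets of the 38439 on the array after control probesets were left out. PTCH1, with 2 probesets, lies on the Z chromosome, and the other 4 genes, with 5 probesets, are autosomal. SHH and GLI3 lie on chromosome 2, SMO on chromosome 1 and GLI2 on chromosome 7 (GRCg7b). In birds the male is ZZ and the female ZW, so PTCH1 is the member whose gene copies differ between the sexes.

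The samples were 9 male and 9 female White Leghorn chicken embryos of about 1 day of age, at Hamburger and Hamilton (HH) stage 4, when the primitive streak is fully extended. From each embryo a square of 400 micron a side was cut from the 70% to 90% level of the streak after 3 h in culture, and 50 ng of its RNA was amplified and hybridized to 1 Affymetrix chicken array. The tissue holds all germ layers of that level, so fewer cells of a type and less RNA per cell cannot be told apart. According to the study some embryos had been electroporated, and the labels do not name them. The study found its sex-biased genes not statistically different between electroporated and control embryos within a sex, and pooled them. It names no hedgehog gene in that check. Sex had been assigned by the authors from a W-linked gene on these same arrays, HINTW, which ranged from 5.08 to 75.1 in males and from 25605 to 32838 in females.

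Hedgehog signalling starts when a secreted ligand such as Sonic hedgehog binds its receptor Patched. Patched without ligand holds back Smoothened, a membrane protein of the primary cilium. Once ligand is bound, Smoothened becomes active and the GLI transcription factors switch from repressors to activators, and PTCH1 is itself a target that feeds back on the signal. In the gastrulating chick, SHH is known from Hensen's node, where it is part of left-right patterning, and from the midline tissue that the node lays down.

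Arrays of the 2 sexes were alike in range. Between 13970 and 15324 probesets in male embryos, and between 13854 and 15203 in female embryos, reached a MAS5 signal of 128, a log2 signal of 7. That level, in at least 9 of the 18 embryos, was required for a test, and 14598 probesets passed. Along the first principal component (17.2% of the variance) males 5, 6 and 8 and female 9 lay at 1 end, from 22.65 to 42.49. Male 9 was next at 12.29, and the other end reached -25.7 in female 5. Results are also given without these 4 embryos, males 5, 6 and 8 and female 9, where they change. Of the 7 hedgehog probesets 3 passed the filter, 1 each of PTCH1, SMO and GLI3. None of these 3 differed between the sexes in the limma fit over all tested probesets (adjusted p from 0.851 to 0.994), where 2.75% of tested probesets did, 2.47% as male-higher and 0.281% as female-higher.

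SHH, the ligand, was not detectable at this level by its only probeset. Its signal lay between 5.903 and 61.43 in males (median 21.43) and between 11.15 and 78.87 in females (median 23.39), and 0 of 18 embryos reached 128. Male 2 and male 8 were the highest of their sex, females 3, 6 and 8 were close together at the top, and the ranges overlapped. The means were 26.86 ± 20.88 in males and 40.61 ± 29.73 in females (SD, n = 9 each). An exact permutation test of the log2 signals gave p = 0.27, 2-sided, and says little at signals this low. No ratio between the sexes is given, since both are below the level.

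PTCH1 encodes Patched, the receptor that binds the ligand and holds back Smoothened. Its brighter probeset had signals of 639.4, 802.3, 686.6, 790.0, 578.3, 705.3, 811.8, 684.9 and 976.1 in males 1 to 9. In females 1 to 9 the signals were 590.4, 656.1, 648.9, 673.8, 696.8, 789.4, 756.8, 397.5 and 840.8. The ranges overlapped along most of their length: only male 9 was above the highest female, only female 8 was below the lowest male, and 7 males were above the female median. All 18 embryos reached the level of 128.

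PTCH1 averaged 741.6 ± 117.6 in males and 672.3 ± 128.9 in females (SD, n = 9 each), an M:F ratio of 1.103. On the log2 scale the difference, male minus female, was 0.15 with a standard error of 0.13, and did not pass the test (limma, adjusted p = 0.851; exact permutation p = 0.263). Its 95% interval ran from -0.11 to 0.42, which as a ratio of geometric means (1.113) is 0.924 to 1.34. A ratio of 2, that of the Z copies, lay outside it and a ratio of 1 inside. The other tested Z-linked probesets had a median ratio of 1.508, itself short of 2. The difference was 0.06 without female 8, the lowest embryo, with no test read since it was picked by that signal. Without males 5, 6 and 8 and female 9 the difference was 0.28 and did not pass the test (limma, adjusted p = 0.579).

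The other PTCH1 probeset did not carry this signal. It ranged from 3.631 to 49.37 in males (median 9.608) and from 2.521 to 52.29 in females (median 28.56), and no embryo reached 128. The annotation links the dim probeset to the RefSeq transcript of PTCH1 and the bright one to another GenBank sequence, so all that is said of PTCH1 rests on 1 probeset whose partner disagrees with it.

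**Figure D1:**
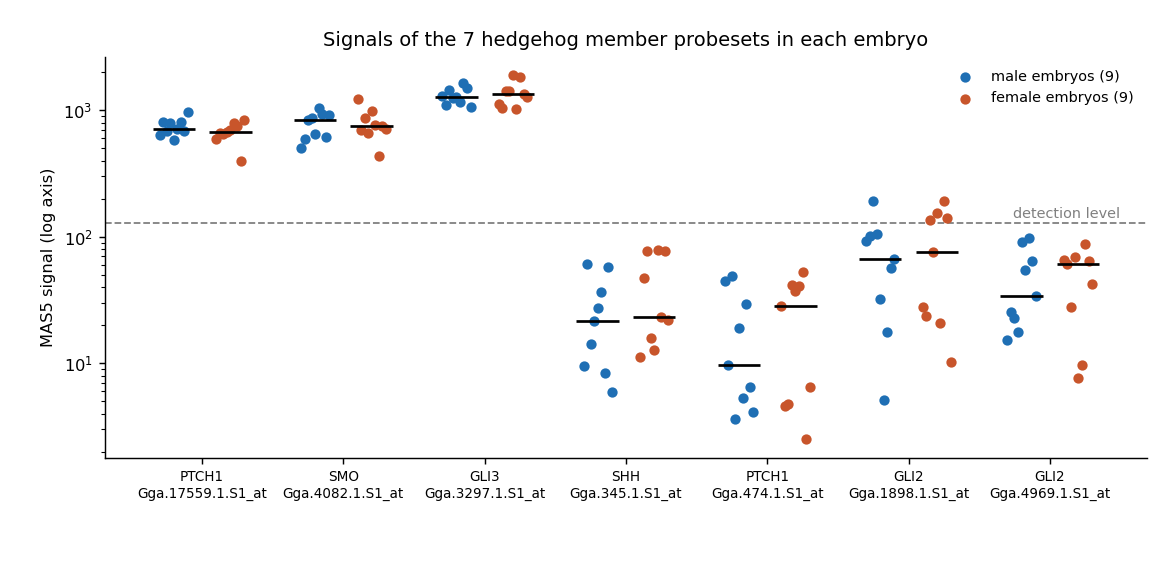
MAS5 signal (log axis) of each hedgehog probeset in every embryo, males left of females, with 1 point for each embryo, a bar at the median of each sex, and the level of 128 as a dashed line. PTCH1, SMO and GLI3 lie above the line in all 18 embryos with overlapping sexes, while SHH, the second PTCH1 probeset and GLI2 lie mostly or wholly below it.

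SMO encodes Smoothened, the membrane protein that passes the signal on once Patched releases it. Its probeset ranged from 504 to 1051 in males (median 840.3) and from 434.3 to 1225 in females (median 753.8). The highest and the lowest embryo of all were both female, and the male range lay wholly within the female one. The means were 775.3 ± 189.9 in males and 787.8 ± 222.5 in females (SD, n = 9 each), an M:F ratio of 0.984. The log2 difference was -0.01 with a standard error of 0.18 and a 95% interval of -0.38 to 0.36 (limma, adjusted p = 0.994; exact permutation p = 0.949).

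GLI3 encodes the family member best known, from mouse, as the main repressor of hedgehog targets in the absence of ligand. Its signal ranged from 1055 to 1635 in males (median 1268) and from 1015 to 1888 in females (median 1346). Females 5 and 7, at 1887.9 and 1820.6, were above every male, and the other 7 females were within or just below the male range. The means were 1302 ± 190.1 in males and 1375 ± 312.8 in females (SD, n = 9 each), an M:F ratio of 0.947. The log2 difference was -0.06 with a standard error of 0.13 and a 95% interval of -0.33 to 0.20 (limma, adjusted p = 0.96; exact permutation p = 0.638).

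GLI2 encodes the family member best known, from mouse, as the main activator of hedgehog targets. Its brighter probeset ranged from 5.073 to 191.5 in males (median 66.23) and from 10.19 to 193.3 in females (median 75.82). Only 5 of 18 embryos reached 128, male 3 and females 3, 5, 7 and 8, so it stayed outside the test. The second GLI2 probeset ranged from 15.43 to 98.11 in males and from 7.733 to 88.07 in females, and no embryo reached 128. Exact permutation tests of the log2 signals of the 2 probesets gave p = 0.816 and p = 0.956.

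The embryos of 1 sex differed among themselves about as much in the 3 measured members as in other genes. The within-sex SD of the log2 signal was 0.273 for PTCH1, 0.392 for SMO and 0.27 for GLI3, against a median of 0.304 over all tested probesets. From the lowest to the highest embryo PTCH1 spanned 1.69-fold in males and 2.11-fold in females, SMO 2.09-fold in males and 2.82-fold in females, and GLI3 1.55-fold in males and 1.86-fold in females.

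To set the Z-linked member against the autosomal ones, the log2 signal of SMO or GLI3 was subtracted from that of PTCH1 in the same embryo. Probesets differ in how they respond, so the level of such a difference has no meaning, and only its change between the sexes is read. PTCH1 minus SMO was -0.04 ± 0.32 in males (from -0.58 to 0.44) and -0.20 ± 0.58 in females (from -1.05 to 0.80). PTCH1 minus GLI3 was -0.81 ± 0.35 in males (from -1.13 to -0.11) and -1.03 ± 0.44 in females (from -1.76 to -0.36). The female values spread over more than the male ones for both, and the sexes overlapped.

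The log2 difference between the sexes was 0.17 larger for PTCH1 than for SMO, with a standard error of 0.21 and a 95% interval of -0.28 to 0.61 (limma, adjusted p = 0.752; exact permutation p = 0.466). Against GLI3 the difference was 0.21 with a standard error of 0.19 and a 95% interval of -0.18 to 0.61 (limma, adjusted p = 0.685; exact permutation p = 0.27). Neither of these 2 comparisons passed the test, and 0.018% of the autosomal probesets did in the same fit. Both intervals held 0. Near their upper ends both also held 0.59, the median difference of the other Z-linked probesets, so they exclude neither value. Against SMO and GLI3 the differences were 0.08 and 0.12 without female 8, with no test read. Without males 5, 6 and 8 and female 9 they were 0.30 and 0.36 (limma, adjusted p = 0.42 and 0.323).

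**Figure D2:**
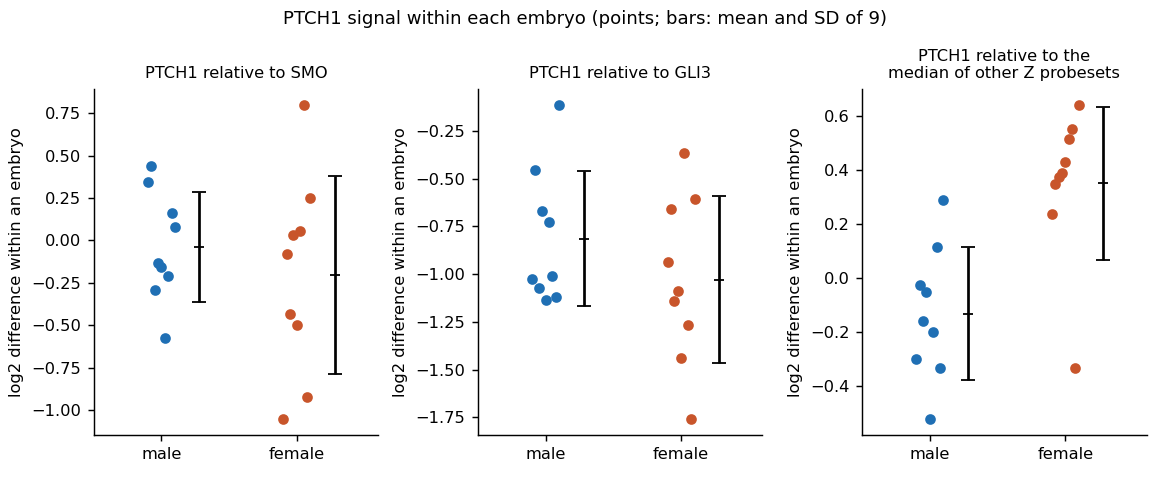
Log2 signal of PTCH1 minus that of SMO, of GLI3 and of the median of the other tested Z-linked probesets in the same embryo, males left of females, 1 point for each embryo, with the mean and SD of the 9 embryos of a sex as bars. Against SMO and GLI3 the sexes overlap, while against the Z median 7 of 9 females lie above the highest male.

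On the Z chromosome PTCH1 lay toward the low end of the sex differences. The other 501 tested Z-linked probesets had a median log2 difference of 0.59, an M:F ratio of 1.508, with the middle of the distribution, between the quartiles, from 0.36 to 0.78. Of them 286 were male-higher in the limma fit, which with PTCH1 counted is 57% of Z-linked probesets, against 0.0631% of autosomal ones. PTCH1 had a smaller difference than all but 42 of them (8.4%), or all but 30 of the other 353 Z-linked genes when each was read by its brightest probeset. The 95% interval of PTCH1 had 339 (67.7%) of the other Z-linked probesets above it. The autosomal probesets had a median of -0.02, and 1478 of 11092 (13.3%) had a difference above that of PTCH1.

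**Figure D3:**
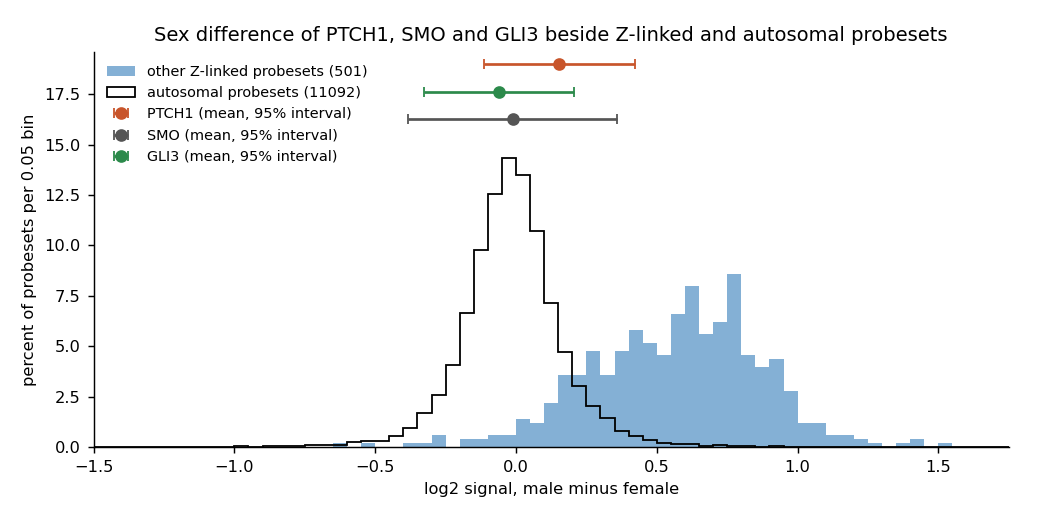
Distribution of the log2 difference, male minus female, over the other 501 tested Z-linked probesets (filled) and 11092 autosomal ones (outline), as a percent of each set in bins of 0.05, with the differences of PTCH1, SMO and GLI3 and their 95% intervals above. PTCH1 at 0.15 lies between the median of the autosomal probesets at -0.02 and that of the Z-linked ones at 0.59.

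Taken within each embryo, PTCH1 minus the median of the other Z-linked probesets was -0.13 ± 0.25 in males and 0.35 ± 0.28 in females (SD, n = 9 each). The difference, male minus female, was -0.48 (exact permutation p = 0.00251, 2-sided). Of the females 7 lay above the highest male, female 1 lay among the males, and female 8, at -0.33, lay among the lowest males. The comparison with the Z median was added after the values had been seen. How many of the other Z-linked probesets differ from that median at such a p was not worked out, so the p does not set PTCH1 apart from them. Without males 5, 6 and 8 and female 9 the difference was -0.34 (exact permutation p = 0.033).

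Set against each Z-linked probeset singly, PTCH1 was less male-higher than 36 of 501 after adjustment (7.19%; limma) and more male-higher than 1 (0.2%), where 0.445% of all tested probesets differed from PTCH1 in either direction. At an unadjusted p under 0.05 it was less male-higher than 262 (52.3%), where 8.25% of all tested probesets differed from it. All of these differences carry the same PTCH1 values and so are not independent of each other.

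The nearest genes on either side of PTCH1 on Z with a tested probeset, 5 on each side in the order of GRCg7b, were read in the same way. All 10 had a larger difference than PTCH1, from 0.18 to 0.82 with a median of 0.50, where 91.6% of the other Z-linked probesets did, and 5 of them were male-higher, where 57% of Z-linked probesets were. FANCC, a gene of the Fanconi anaemia DNA repair pathway and the nearest on one side, averaged 324.48 ± 49.41 in males and 187.58 ± 19.74 in females (SD, n = 9 each; log2 difference 0.78, limma adjusted p = 1.55e-05). ERCC6L2, which encodes a helicase-like protein and is the nearest on the other side, averaged 642.1 ± 52.47 in males and 400.41 ± 59.94 in females (log2 difference 0.69, limma adjusted p = 3.32e-05).

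Farther out, FBP1, an enzyme of gluconeogenesis (0.61), GOLM1, a Golgi membrane protein (0.40), and SPIN1, a histone reader (0.82), were male-higher as well. ISCA1, of iron-sulfur cluster assembly, the cathepsin CTSV, HABP4, AAED1 and CFC1, a Nodal co-receptor, did not pass the test, with differences of 0.18, 0.18, 0.23, 0.29 and 0.70. CFC1 averaged 9327.4 ± 4705 in males and 5801.8 ± 3111 in females, and its standard error of 0.32 was the largest of the 10. Tested against PTCH1 within each embryo, SPIN1 alone differed (PTCH1 minus SPIN1 lower in males by 0.67, limma adjusted p = 0.0323), and for FANCC and ERCC6L2 the adjusted p was 0.101 and 0.311.

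**Figure D4:**
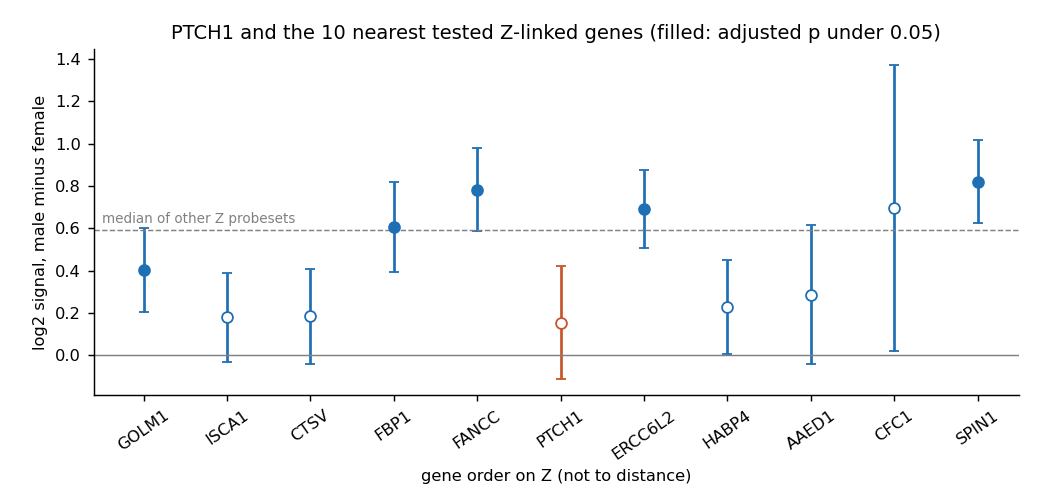
Log2 difference, male minus female, with its 95% interval for PTCH1 and the 5 nearest tested genes on each side of it, in their order along Z and not to scale in distance, filled where the adjusted p is under 0.05, with the median of the other Z-linked probesets as a dashed line. PTCH1 has the smallest of the 11 differences, at 0.15, with ISCA1 and CTSV close to it at 0.18 each. The genes on either side of it, FANCC and ERCC6L2, are at 0.78 and 0.69.

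No correlation between the measured members passed the test. On log2 signals centred within each sex, PTCH1 and SMO had r = 0.03 (permutation p = 0.919) and rho = 0.08 (p = 0.773) over 18 embryos. PTCH1 and GLI3 had r = -0.07 (permutation p = 0.804) and rho = -0.16 (p = 0.535), and SMO and GLI3 had r = -0.18 (permutation p = 0.517) and rho = -0.12 (p = 0.626). Adjusted over the 10 pairs of member genes, these permutation p-values were 0.738 to 0.919 for r and 0.764 to 0.859 for rho. Without the 2 embryos farthest from the median of the first gene the values of r were -0.10, 0.07 and 0.21. Within each sex, r was 0.49 in males and -0.27 in females for PTCH1 and SMO, -0.34 in males and 0.05 in females for PTCH1 and GLI3, and -0.02 in males and -0.27 in females for SMO and GLI3 (n = 9 each, not tested). Of the 10 pairs of member genes computed, the 7 others hold SHH or GLI2, which were mostly below the level. The highest of all was GLI2 with GLI3 (r = 0.45, permutation p = 0.0681, rho = 0.53, p = 0.032), with adjusted p over the 10 pairs of 0.681 for r and 0.32 for rho, and its r was -0.02 in males and 0.78 in females.

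The genes most like each measured member were taken by r over the same 18 embryos among 7864 genes, so they were picked as the highest and have no test. With PTCH1 these were ANKIB1 (0.84), CAMSAP2, a microtubule minus-end protein (0.81), SEPHS1 (0.78), WDR86 (0.77) and GRB2, an adaptor of receptor tyrosine kinases (0.76). None of them is on Z, which holds only 354 of the tested genes. With SMO they were the Z-linked PAPD4 (0.77), DSEL (0.70), GRK4, a G protein-coupled receptor kinase (0.70), SYT14 (0.67) and TTLL8 (0.66). With GLI3 they were SLC6A15, an amino acid transporter (0.81), DCX, a microtubule-associated protein known from young neurons (0.81), PER2, of the circadian clock (0.77), SFRP2, a secreted Wnt antagonist (0.76), and PNPLA3 (0.74). No gene was among the closest 5 of more than 1 member, which says little for lists so short among 7864 genes.

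Of 52 other genes of the pathway, listed in 5 groups by role, 44 were on the array and 25 had a probeset that passed the filter. None of their 38 tested probesets was on Z, and 0 were male-higher and 0 female-higher (limma, lowest adjusted p = 0.0592), where 0.18% of all autosomal probesets passed the test in either direction. At an unadjusted p under 0.05 there were 4 of 38, 2 of them of CCND2 and 1 each of MYCN and CSNK1A1, where 5.15% of autosomal probesets were. The median difference was -0.06, against -0.02 over the autosomal probesets and -0.01 over all tested probesets.

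Among genes of ligand release, DISP1, which lets the lipid-bearing ligand leave the cell, averaged 831.1 ± 301.7 in males and 967.8 ± 196.8 in females, and SCUBE2, a secreted partner of that step, 414.5 ± 76.59 in males and 403.4 ± 52.7 in females (SD, n = 9 each). This DISP1 probeset had a log2 difference of -0.28, while the other tested one had 0.05 (limma, adjusted p = 0.976). The other ligand measured, IHH, had a highest signal of 37.9. Of the co-receptors CDON averaged 513.0 ± 197.0 in males and 495.9 ± 264.7 in females, and LRP2 235.3 ± 79.91 in males and 218.0 ± 75.75 in females. These 4 genes had adjusted p from 0.803 to 0.983 in limma.

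Of the genes between Smoothened and the GLI proteins, PRKAR1A, a regulatory subunit of protein kinase A, averaged 6960 ± 366.1 in males and 7197 ± 586.6 in females. CSNK1A1, a kinase that marks GLI proteins for processing, averaged 2068 ± 330.7 in males and 2443 ± 390.6 in females, with a log2 difference of -0.24 (limma, adjusted p = 0.543). The other CSNK1A1 probeset had a difference of -0.07 (limma, adjusted p = 0.94). SUFU, which holds GLI proteins in the cytoplasm, averaged 1372 ± 225.4 in males and 1405 ± 179.4 in females. The cilium genes IFT52 and IFT88, of transport along the ciliary axis, averaged 1357 ± 237.8 and 460.4 ± 141.6 in males, and 1416 ± 180.5 and 430.7 ± 67.47 in females. Of the cilium genes on the array 6 of 6 passed the filter.

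Of the known targets, which are also driven by other signals, 9 of the 11 on the array passed the filter. MYCN averaged 10030 ± 1727 in males and 11860 ± 1219 in females, with a log2 difference of -0.25 (limma, adjusted p = 0.363). The other MYCN probeset had a difference of -0.06 (limma, adjusted p = 0.98). CCND1 averaged 6765 ± 1283 in males and 6564 ± 1582 in females (limma, adjusted p = 0.966). The lowest adjusted p of any pathway gene, 0.0592, was that of CCND2, which encodes cyclin D2 and averaged 3408 ± 309.7 in males and 4229 ± 576.0 in females (log2 difference -0.31). Its second probeset had a difference of -0.38 (limma, adjusted p = 0.0677) and the dimmest one of -0.10 (adjusted p = 0.893). GLI1 and HHIP, grouped here by other roles, are also targets of the pathway, as is PTCH1. The GLI1 probeset and the brighter of the 2 HHIP probesets did not reach 128 in any embryo. The bright PTCH1 probeset reached it in all 18. GLI1 averaged 32.71 ± 25.53 in males and 45.58 ± 23.04 in females, and HHIP, a protein that binds and retains the ligand, 41.89 ± 10.47 in males and 46.54 ± 20.72 in females. CCND2, SUFU, IHH, GLI1 and HHIP were chosen for mention after their values had been seen.

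**Figure D5:**
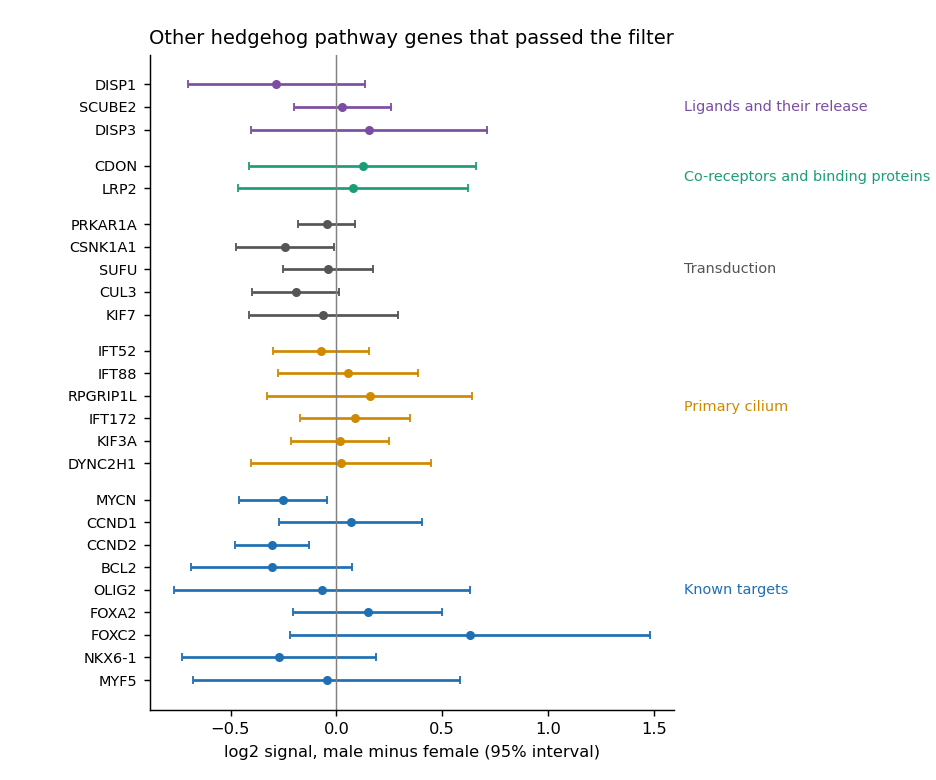
Log2 difference, male minus female, with its 95% interval for the 25 other pathway genes that passed the filter, coloured and grouped by role, with the brightest probeset of each gene. None has an adjusted p under 0.05 and none is on Z, and CCND2 at -0.31 has the lowest adjusted p.

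The cut of tissue was checked on marker genes. TBXT, the streak gene brachyury, averaged 31160 ± 3873 in males and 30010 ± 4210 in females, and 6 of 7 streak genes passed the filter. Of the node genes, FOXA2 and the BMP antagonist CHRD reached 128 in all 18 embryos, NOTO in 17, NOG in 11, CER1 in 6 and GSC and ADMP in 4 each. CHRD varied widely, with 1668 ± 1566 in males and 1479 ± 1790 in females (SD, n = 9 each). The only SHH probeset stayed below 128 in every embryo, and whether it can detect SHH was not tested. The mean log2 signal of the tested node probesets ran from 8.12 to 9.48 in males and from 7.76 to 9.63 in females. None of the 7 marker lists had a probeset past the test in either direction, where 0.18% of all autosomal probesets passed it. The lack of calls in such short lists therefore says little. The largest shift of a list was that of extraembryonic and non-neural ectoderm, with a median difference of -0.53 (limma, lowest adjusted p = 0.377). It rests on 2 tested genes, DLX5 and MSX1, and the other listed genes, GATA2 and GATA3, did not pass the filter. The part of the marker genes in the values of the hedgehog genes was not tested.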

How the data were processed

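Per the labels and the study's methods, the authors made the deposited intensity values with MAS5 of the affy package: MAS5 subtracts background, combines matched and mismatched probes into 1 signal and brings all arrays to a common trimmed mean. The trimmed means of the arrays lay between 496.0 and 496.9 with 2% left out at each end. Of 38535 probesets 96 controls were left out. Signals were taken to log2 with no added constant. Probesets with a log2 signal of at least 7 in at least 9 of 18 embryos were tested (14598, of which 11705 read 1 gene, 69 several and 2824 none).

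Genes came from the platform annotation, with symbols, chromosomes and neighbour order from RefSeq (GRCg7b). The sexes were compared, male minus female, with limma 3.58.1 in R 4.3.3, with sex as the only coefficient and p-values adjusted across the tested probesets by Benjamini-Hochberg (threshold 0.05), in place of the SAM test of the study. The same model was fitted to PTCH1 minus each other tested probeset within an embryo. Exact permutation tests, on log2 values, took all 48620 splits of the embryos, and correlations 100000 permutations within sex. Tests were 2-sided. Of them the limma comparison of the sexes was tried on simulated data first, and the permutation tests were not. The spread is that of separate embryos, 1 array each, and the number of arrays limits the precision.

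Alternatives were other filters, log2 of the signal plus 32, quantile normalization or centring on autosomal probesets, a variance trend, array weights, a replicate block, 1 probeset for each gene, and leaving out embryos. The counts without 4 embryos and the comparison of PTCH1 with the Z median were added after the data were seen. Named were all member probesets, pathway genes past the test or otherwise the 2 brightest of each role, the 5 genes most like each measured member, and the 5 tested genes on each side of PTCH1. The members and lists were chosen with earlier results of these data known.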

Additional observations from a re-analysis of the deposited data

Results flagged for a closer look

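In the PTCH1 probeset that passed the filter, female 8 stood apart from the other females. Its signal of 397.5 was the lowest, and on the log2 scale its gap to the next female took 0.528 of the range of the 9 females, above Dixon's 95% critical value. It was the single such embryo among 14 groups looked at (7 probesets in 2 sexes), and chance marks about 1 in 20 groups. Without female 8 the sex difference of PTCH1 was 0.06, and that of PTCH1 relative to the Z median was -0.57. Female 8 was picked by its low PTCH1 signal, so leaving it out moves both differences by construction. No test is read from them.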

How the results depend on the processing

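No alternative brought PTCH1, SMO or GLI3 past the test. The log2 difference of the bright PTCH1 probeset stayed positive, from 0.14 to 0.28 over the other settings. It ran from 0.06 to 0.20 when each embryo was left out in turn. The dim PTCH1 probeset, below 128 in every embryo, ran from -0.33 to -0.13 over the settings tried for it. SMO, near 0, was 0.0085 with array weights and ran from -0.1128 to 0.0741 with each embryo left out. GLI3 ran from -0.1112 to 0.0008, the last without female 5. With each embryo left out, PTCH1 relative to GLI3 ran from 0.1231 to 0.2977 and relative to SMO from 0.0600 to 0.2917. The values were 0.36 and 0.30 without males 5, 6 and 8 and female 9, and -0.2146 and -0.2630 with the dim PTCH1 probeset. PTCH1 relative to the Z median ran from -0.5349 to -0.4335 with each embryo but female 8 left out (exact permutation p from 0.00136 to 0.00494). It was -0.5675 without female 8, which was picked by its low PTCH1 signal, so no test is read there. Against the Z mean it was -0.41, and with 1 probeset for each gene -0.51.

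Over all genes 361 probesets were male-higher and 41 female-higher. With 1 probeset for each gene the counts were 221 and 17, the stricter filter gave 18 female-higher, and with each embryo left out they were 333 to 359 and 34 to 47. Without males 5, 6 and 8 and female 9 they were 299 and 43. The correlation of PTCH1 with SMO was -0.104 without the 2 farthest embryos, 0.494 in males and -0.267 in females. That of PTCH1 with GLI3 was 0.074, -0.337 and 0.048 in the same settings, and that of SMO with GLI3 was 0.209 without the 2 farthest embryos. The causes of these shifts were not tested.

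Males and females share only replicate numbers: 4 of 9 same-numbered pairs had a correlation over 0.1, and 2 of 9 males correlated best with their own number. With the replicate block PTCH1 had a difference of 0.15 with a standard error of 0.11 (limma, adjusted p = 0.772), 323 probesets were male-higher and 35 female-higher, and no call on a hedgehog gene changed. For SHH, GLI2 and the dim PTCH1 probeset, signals near background limit what can be said of either sex.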
